A study of Mus musculus with 6 samples.

Results

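The mitochondrial respiratory chain was followed here through its nuclear-encoded subunits in splenic B cells of mice with a defective Btk. Every probe set of the array annotated to a single symbol that starts with Nduf, Sdh (Sdha to Sdhd), Uqcr, Cox4 to Cox8 or Atp5 was taken. This gave 98 of 12488 probe sets, which stand for 71 genes. By symbol, 42 probe sets belong to complex I (31 genes), 4 to complex II (4 genes), 7 to complex III (7 genes), 23 to complex IV (15 genes) and 22 to complex V (14 genes).

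RNA of whole splenic B cells of adult mice had been hybridised to 6 Affymetrix MG_U74Av2 arrays, 2 for each of 3 groups. The controls were wild type CBA mice. Xid mice are of the CBA/N strain, whose Btk, the kinase that relays B cell receptor signals, carries the R28C substitution. The Btk KO line came from SW129 mice and had been crossed to CBA for 9 generations, so in both mutants the Btk defect and other strain differences cannot be told apart. The arrays form 2 runs: the first array of each group came from 1 chip lot, and the second, of new RNA from new mice, from another. The labels do not say whether an RNA was pooled from several animals, so p-values measure the spread between these arrays. The deposited values are linear intensities in scaled units, and with 2 arrays a group the precision is low throughout.

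The respiratory chain sits in the inner mitochondrial membrane. Complex I (NADH dehydrogenase) and complex II (succinate dehydrogenase) pass electrons to ubiquinone, complex III (the cytochrome bc1 complex) hands them to cytochrome c, and complex IV (cytochrome c oxidase) transfers them to oxygen. The proton gradient built on the way drives complex V, the ATP synthase. Most subunits are encoded in the nucleus, and resting B cells carry a modest respiratory activity that increases on activation.

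The array-level facts that touch these genes are few. Median intensity per array lay between 32.7 and 37.7. The 3' to 5' ratio of the Gapdh controls, a sign of RNA quality, was 10.4 on the Btk KO array of run 1 and between 0.76 and 1.61 on the other 5 arrays, and that array was hybridised on a day of its own. The mean intensity of the B cell marker Cd79a was 5646 ± 507 (SD, n = 2) for CBA, 4986 ± 774 for Xid and 3524 ± 648 for Btk KO. The summed intensity of 8 B cell markers was 21427.1 and 21578.0 for CBA, 21638.7 and 16587.4 for Xid, and 15318.5 and 14407.7 for Btk KO. That of 11 macrophage markers ran the other way, at 2431.8 and 3666.4 for CBA, 5586.7 and 8460.4 for Xid, and 8961.5 and 12044.2 for Btk KO. That of 8 erythroid markers was highest on the Btk KO array of run 1, at 22074.2, against 5647.4 to 10615.9 elsewhere. That of 8 neutrophil markers was 894.6 and 1655.9 in Btk KO and 193.2 to 276.2 in the other groups. For 6 NK cell markers it was 292.5 and 434.0 in CBA, 454.0 and 731.9 in Xid, and 733.8 and 1461.9 in Btk KO. The lower Btk KO value there is close to the higher Xid value. No marker read 0 on any array. The part of these shifts in the values below was not tested, and fewer cells of a type and less RNA per cell cannot be told apart.

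Of the 98 member probe sets, 73 passed the filter on dim probe sets, a mean intensity of about 19.8, and 25 did not. The 73 stand for 63 genes: 28 of complex I, 4 of complex II, 7 of complex III, 11 of complex IV and 13 of complex V. The 8 genes without a measured probe set were Ndufa12, Ndufc2 and Ndufs4 of complex I, Cox5a, Cox6b2, Cox7a1 and Cox8a of complex IV, and Atp5j2 of complex V. Cox5a, a complex IV subunit that every respiring cell uses, read at most 22.8 on its 2 probe sets. A dim probe set here therefore does not show that the transcript was absent. Among the measured 73, 16 carry the suffix for probe sets that can read several related transcripts (_f_at), and 6 more are of types with relaxed probe choice (_r_at, _i_at, _g_at); respiratory chain genes have many processed pseudogenes, so these are uncertain.

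Promoters of respiratory chain genes are known for sites of NRF1, of the ETS factor GABP and of YY1. The letters of such sites were looked for in the RefSeq promoters of the members (GRCm38.p6, a window of equal length around each annotated start). A gene was counted where any of its windows held the letters, so genes with several starts had more sequence searched. A promoter was on hand for 58 of the 71 genes. The NRF1 palindrome, spelled out in capitals in the stretches below, stood in 5 of the 58 (8.62%), against 1.07% of 27025 genes. With any base in place of its T, on either strand, the motif, which includes the palindrome, stood in 12 (20.7% against 5.19%). Also on either strand, the ETS letters CCGGAAG stood in 16 (27.6% against 9.93%) and the YY1 letters AAGATGGC in 8 (13.8% against 3.19%). The Sp1 letters GGGCGG were in 48.3% of the members and 38.2% of all genes, and TATAAA in 10.3% and 15.7%. A match is a stretch of letters and not a shown binding site, and the array data do not bear on binding. The stretches below show the exact palindrome, in capitals, in the members where it lies upstream of the start, with up to 40 bases on either side, 5′ to 3′ on the strand of the gene. They were chosen after the match was seen.
Ndufaf4 (an assembly factor of complex I; chr4:24897930-24898019, plus strand): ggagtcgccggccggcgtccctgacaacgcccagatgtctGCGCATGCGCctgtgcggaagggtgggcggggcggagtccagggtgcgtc
Cox6a1 (a subunit of complex IV; chr5:115349071-115349160, minus strand): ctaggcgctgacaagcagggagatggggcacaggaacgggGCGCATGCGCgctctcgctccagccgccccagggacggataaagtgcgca
Atp5g2 (a subunit c gene of complex V; chr15:102671048-102671129, minus strand): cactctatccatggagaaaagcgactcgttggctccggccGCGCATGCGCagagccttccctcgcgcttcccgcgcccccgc
Atp5k (subunit e of complex V; chr5:108434400-108434489, minus strand): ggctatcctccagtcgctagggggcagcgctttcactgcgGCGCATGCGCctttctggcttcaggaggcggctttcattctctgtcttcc
In the array data, the measured probe sets of these 4 genes differed between Btk KO and CBA by -0.06 (Ndufaf4), -0.07 (Cox6a1), 0.02 (Atp5g2) and -0.26 (Atp5k) on the log2 scale, each less than its standard error.

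The comparison of Xid with CBA asks whether the chain's transcripts differ in B cells with a point mutation of Btk, and that of Btk KO with CBA asks the same for the knockout line. In neither did a respiratory chain transcript pass the test. The median difference of a complex lay between -0.02 and 0.04 on the log2 scale in Xid and between -0.23 and 0.02 in Btk KO. The probe set with the smallest p, of the _i_at type, was that of Atp5e, an ATP synthase subunit, at -0.70 ± 0.26 (SE) in Btk KO. In Xid against CBA, limma called 0 of 73 member probe sets at an adjusted p of 0.05, where it called 0.0671% of all 7453 probe sets tested, and 0 members had an unadjusted p under 0.05 (4.43% of all). In Btk KO against CBA it called 0 of 73, where it called 0.174% of all, and 1 member had an unadjusted p under 0.05 (8.83% of all). In Btk KO against Xid it called 0 of 73, where it called 0.0403% of all, and 0 members had an unadjusted p under 0.05 (3.61% of all). With shares that low over all probe sets, a count of 0 among 73 lies near the background and is no result about the chain. With the run as a block the counts were again 0 in all 3 comparisons, against 0.483%, 2.23% and 0.188% of all probe sets, and 2, 4 and 1 members had an unadjusted p under 0.05 (8.10%, 15.1% and 7.31% of all).

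The sizes say more than the counts. The median log2 difference over the 73 probe sets was -0.01 in Xid against CBA, -0.07 in Btk KO against CBA and -0.06 in Btk KO against Xid, beside 0.01, 0.01 and 0.00 over all probe sets tested. Within the runs it was 0.01 and -0.03 in Xid against CBA, and -0.03 and -0.07 in Btk KO against CBA. Counted over all 98 members, dim ones included, the medians were 0.00, -0.01 and -0.02. The differences of single members ran from -0.39 to 0.99 in Xid and from -0.70 to 0.72 in Btk KO against CBA. The 95% interval of a member's difference reached a median of 0.57 to either side. In Btk KO against CBA the whole interval lay within 1 log2 unit of 0 for 59 of the 73 (80.8%), and in Xid against CBA for 64 (87.7%); over all probe sets tested the shares were 58.4% and 64.6%. For those members a difference of 1 log2 unit is therefore outside the interval, while differences within a member's own interval are not resolved. A constant was added to the intensities before log2, so a doubling or a halving of a dim member's intensity is a smaller step. Such a change can therefore lie inside the interval of a dim member.

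**Figure D1:**
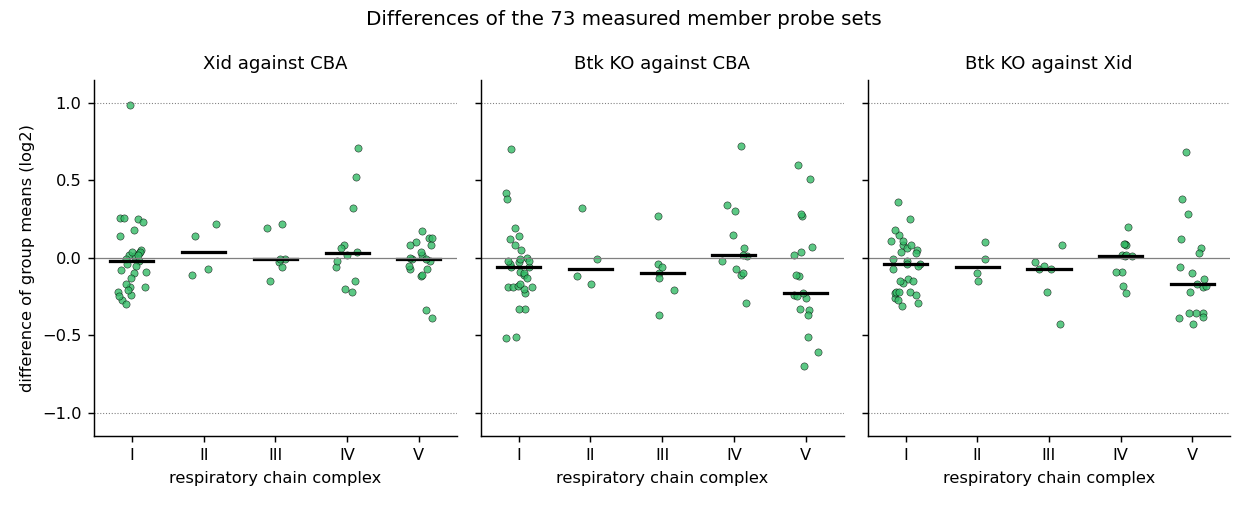
Log2 difference of group means for the 73 measured member probe sets (points), by complex, in the 3 comparisons; bars are medians and dotted lines mark 1 log2 unit. Medians lie between -0.23 (complex V, Btk KO against CBA) and 0.04 (complex II, Xid against CBA), and all points lie within 1 log2 unit.

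The balance of directions in the knockout was examined next, since its median lay lowest. In Btk KO against CBA 48 of 73 probe sets had a difference below 0 and 25 above. The share below 0 over all probe sets tested was not counted, and their median was 0.01, so this split is only a description. Lower values in both runs were found for 25 (34.2%, against 27.1% of all tested) and higher values in both runs for 14 (19.2%, against 31.4%). In 13 the Btk KO arrays lay wholly below the CBA arrays (17.8%, against 16% of all), and in 4 wholly above (5.48%, against 20%). The lower side is near the background, and the higher side is below it. In Xid against CBA 11 lay wholly above and 11 wholly below (15.1% each, against 17.0% and 14.4% of all), and 17 were higher and 18 lower in both runs (23.3% and 24.7%, against 27.8% and 25.4%). In Btk KO against Xid 4 lay wholly above and 10 wholly below (5.48% and 13.7%, against 14.2% and 12.3%), and 11 were higher and 27 lower in both runs (15.1% and 37.0%, against 27.2% and 26.6%). The order CBA above Xid above Btk KO was held by 25 members (34.2%, against 22.6% of all), and the reverse order by 13 (17.8%, against 23.4%). The comparisons share their arrays, so these shares are descriptions.

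Complex I, the entry point for NADH, was measured through 31 probe sets. Its median difference was -0.02 in Xid and -0.06 in Btk KO against CBA. Ndufv1, the flavoprotein that takes electrons from NADH, read 776.0 and 921.9 on the CBA arrays, 827.0 and 910.4 on those of Xid, and 683.4 and 812.5 on those of Btk KO. All 3 groups overlap on that gene except that both Btk KO arrays lie below both Xid arrays; the difference from CBA was 0.04 (95% interval -0.44 to 0.51) in Xid and -0.18 (-0.66 to 0.29) in Btk KO. Ndufs1, the iron-sulphur subunit next in the electron path, read 261.0 and 193.9 on the CBA arrays, 225.4 and 193.9 on those of Xid, and 289.7 and 213.8 on those of Btk KO, and its groups overlap. Its difference was -0.10 (-0.67 to 0.47) in Xid and 0.14 (-0.43 to 0.71) in Btk KO.

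In Btk KO the complex I probe set with the smallest p was 1 of the 2 measured ones for Ndufb2, an accessory subunit of the membrane arm, and is of the uncertain _r_at type. It read 376.3 and 523.6 on the CBA arrays, 307.2 and 420.7 on those of Xid, and 289.6 and 327.6 on those of Btk KO. Both Btk KO arrays lie below both CBA arrays, and the Xid arrays overlap with each of the other groups. The difference from CBA was -0.52 ± 0.25 (SE), with limma adjusted p = 0.616; the second Ndufb2 probe set differed by -0.20. Ndufv3, a small subunit of the NADH-binding module, read 94.7 and 100.4 on the CBA arrays, 85.3 and 82.2 on those of Xid, and 51.5 and 85.7 on those of Btk KO. Its Btk KO difference of -0.51 rests mainly on the array of run 1, with -0.81 in that run and -0.21 in the other, and that array had the Gapdh ratio of 10.4. On the higher side, Ndufa10, an accessory subunit, read 65.1 and 66.6 on the CBA arrays, 76.2 and 84.6 on those of Xid, and 102.6 and 78.5 on those of Btk KO. Both mutants lie above CBA on that gene, by 0.26 (-0.29 to 0.82) and 0.42 (-0.14 to 0.97).

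Ndufa2, another accessory subunit, gave the smallest p of complex I in Btk KO against Xid. It read 266.6 and 207.2 on the CBA arrays, 292.0 and 192.5 on those of Xid, and 302.9 and 311.6 on those of Btk KO. The Btk KO arrays lie above the other 4, and the difference from Xid was 0.36 ± 0.25 (limma adjusted p = 0.998). In Xid against CBA the smallest p of complex I belonged to a weak probe set of Ndufa3, of the _f_at type, at 27.2 and 5.4 for CBA, 51.4 and 20 for Xid, and 34.4 and 18.8 for Btk KO. Its difference of 0.99 ± 0.62 (limma adjusted p = 0.999) was 0.79 in run 1 and 1.19 in run 2; the second CBA array reads below the pseudocount of 6, while the other 5 arrays do not, and the brighter Ndufa3 probe set differed by 0.14. The assembly factors Ndufaf1 and Ndufaf4, which help build complex I and are not part of it, differed by -0.19 and 0.18 in Xid and by -0.23 and -0.06 in Btk KO.

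Complex II, shared with the citric acid cycle, has 4 subunits and each had 1 measured probe set. Sdha, the flavoprotein that oxidises succinate, read 120.4 and 74.3 on the CBA arrays, 98.0 and 77.7 on those of Xid, and 90.9 and 82.4 on those of Btk KO. The mutant arrays lie between the CBA arrays, and the differences were -0.11 (-0.77 to 0.55) and -0.12 (-0.78 to 0.54). Sdhb, the iron-sulphur subunit, differed by -0.07 and -0.17, with overlapping groups. Sdhc, a membrane anchor, read 314.5 and 392.1 on the CBA arrays, 405.5 and 417.2 on those of Xid, and 468.4 and 414.4 on those of Btk KO, so all 4 mutant arrays lie above both CBA arrays. The differences from CBA were 0.22 ± 0.20 in Xid and 0.32 ± 0.20 in Btk KO (limma adjusted p = 0.999 and 0.728). Sdhd, the other membrane anchor, read 360.7 and 401.7 on the CBA arrays, 484.6 and 363.3 on those of Xid, and 382.1 and 372.2 on those of Btk KO. Its difference between Btk KO and Xid, -0.15 ± 0.21 (limma adjusted p = 0.998), had the smallest p of the complex in that comparison and rests on the Xid array of run 1, without which it was 0.05.

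**Figure D2:**
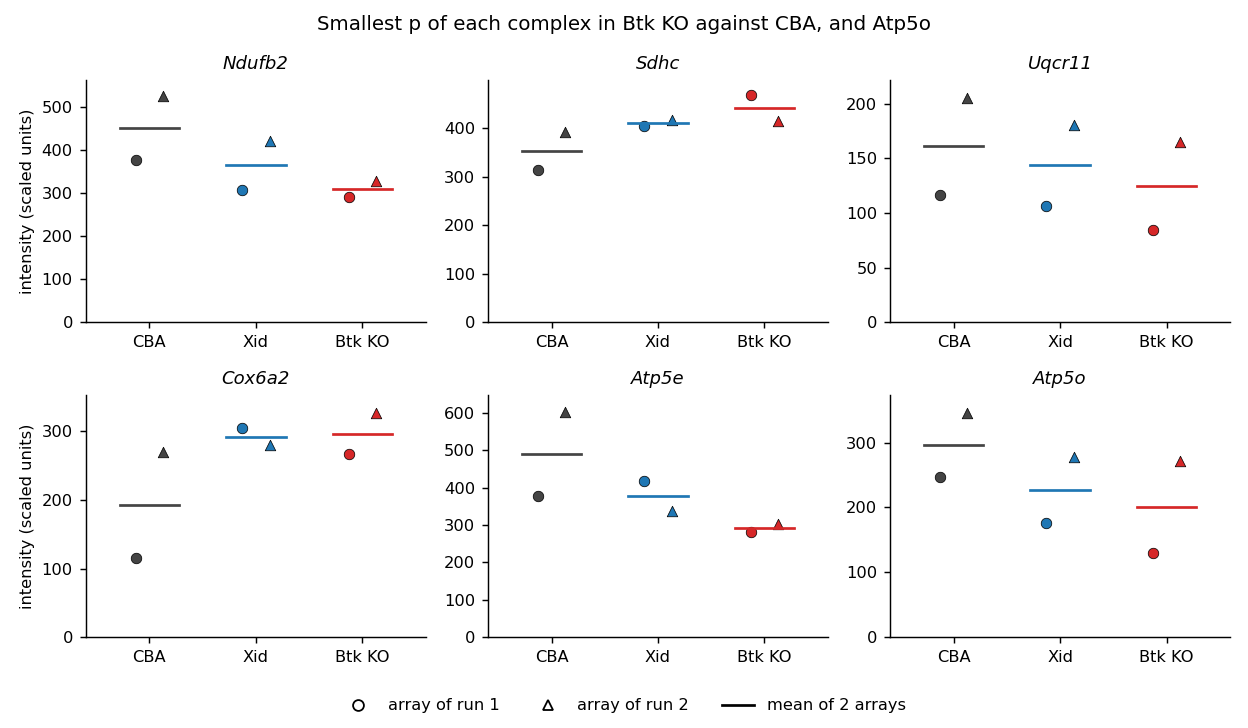
Intensity (scaled units, linear axis from 0) on the 6 arrays for the member with the smallest p of each complex in Btk KO against CBA, and for Atp5o; circles are run 1, triangles run 2 and lines the means of 2 arrays. Atp5e at 281.8 and 301.8 in Btk KO lies below its 4 other arrays, while Uqcr11 and Atp5o separate by run within every group.

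Complex III stood apart in how its members followed the run. Of its 7 members, each with 1 probe set, 4 were lower in run 2 than in run 1 in all 3 groups (57.1%, against 23.8% of all probe sets tested): Uqcr10, Uqcrb, Uqcrc2 and Uqcrh. Uqcr11 was higher in run 2 in all 3 groups, as were 20.8% of all. The difference between the runs, averaged over the groups, had a median size of 0.50 on the log2 scale for complex III, against 0.21 for the 73 members and 0.23 for all probe sets. The highest and lowest group means were meanwhile only 0.13 apart in the median, against 0.23 for all members and 0.32 for all probe sets. That contrast was not tested. The run difference of complex III was uneven over the groups. Its median, run 2 minus run 1, was -0.63 in the knockout. It was -0.40 between the Xid arrays and -0.11 between the CBA arrays. The median size for CBA was 0.37, against 0.25 for all probe sets. The Btk KO array of run 1 (Gapdh ratio 10.4) was the highest of 6 for 4 members (57.1%, against 27.6% of all). It was the lowest for 1. The part of RNA quality in this pattern was not tested.

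Uqcrc2, a core protein that holds the complex together, measured 337.2, 474.2 and 515.6 in CBA, Xid and Btk KO of run 1, and 238.9, 223.0 and 228.4 in run 2. Every run 1 array is above every run 2 array on that probe set. It is of the _f_at type and so uncertain. Uqcrh, the hinge protein that binds cytochrome c1, measured 833.4, 911.7 and 924.0 in run 1 and 685.8, 618.3 and 583.1 in run 2. Uqcr11 ran opposite, with 116.5, 106.7 and 84.3 in run 1 and 205.2, 180.5 and 164.7 in run 2. Within each run the Btk KO value of Uqcr11 was the lowest of the 3, and its difference from CBA was -0.44 in run 1 and -0.31 in run 2. Over both runs it was -0.37 ± 0.41 (limma adjusted p = 0.881), or ± 0.18 with the run as a block (adjusted p = 0.383). Leaving out an array without the block sets 1 run against a mean of both: this gave 0.09 without the Btk KO array of run 1 and 0.02 without the CBA array of run 2, against -0.29 with the block and without that Btk KO array. Uqcrb, a small subunit of the matrix side read by a probe set of the _f_at type, read 444.8 and 299.9 on the CBA arrays, 492.1 and 368.4 on those of Xid, and 415.8 and 237.6 on those of Btk KO. It gave the smallest p of the complex in Xid against CBA, at 0.22 ± 0.32 (limma adjusted p = 0.999; -0.06 without the CBA array of run 2), and in Btk KO against Xid, at -0.43 ± 0.32 (0.998). Uqcrc1, the other core protein, read 424.6 and 549.9 on the CBA arrays, 479.9 and 444.2 on those of Xid, and 468.5 and 415.2 on those of Btk KO, with no separation of groups or runs.

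**Figure D3:**
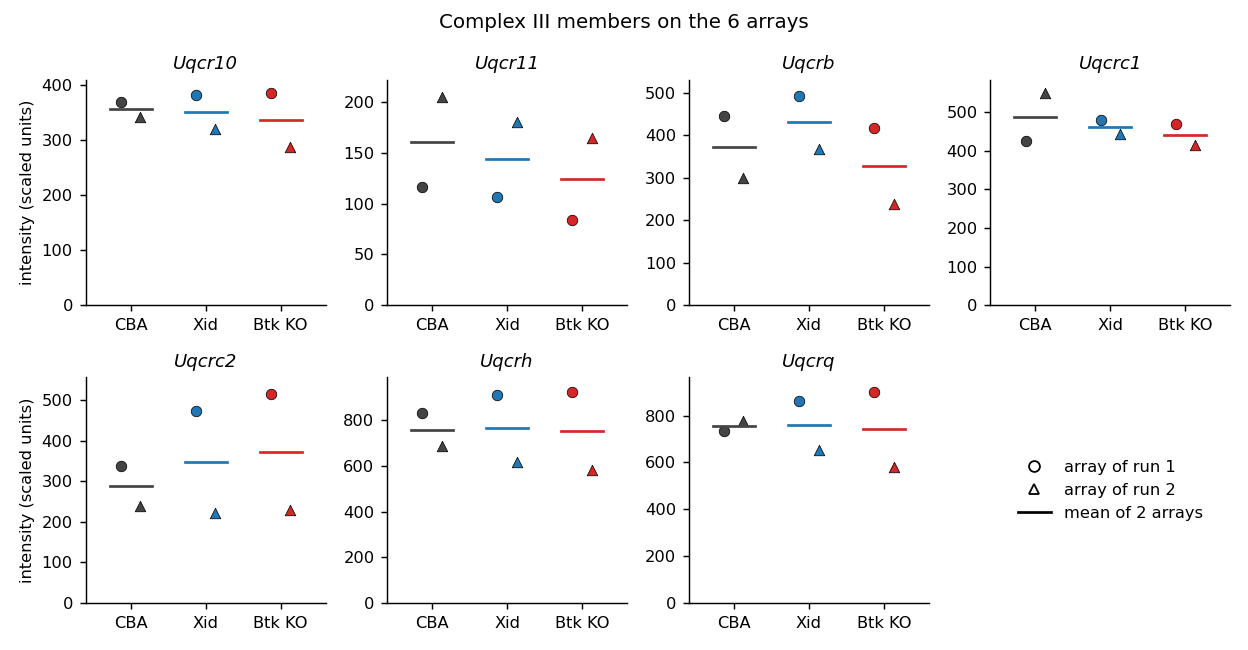
Intensity (scaled units, linear axis from 0) of the 7 complex III members on the 6 arrays; circles are run 1, triangles run 2 and lines the means of 2 arrays. Uqcrc2 lies at 337.2 to 515.6 in run 1 and 223.0 to 238.9 in run 2, while the group means of Uqcrh differ by 0.04 on the log2 scale.

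Complex IV, which reduces oxygen, includes subunits with tissue isoforms. Its 12 measured probe sets had a median of 0.03 in Xid and 0.02 in Btk KO against CBA. Cox5b, which lies on the matrix side of the enzyme, read 343.0 and 349.2 on the CBA arrays, 289.6 and 310.8 on those of Xid, and 255.3 and 312.3 on those of Btk KO. All 4 mutant arrays lie below both CBA arrays, and the differences were -0.20 (-0.65 to 0.25) and -0.29 (-0.74 to 0.16). Cox7a2, the widely expressed isoform of subunit VIIa, read 554.6 and 574.8 on the CBA arrays, 608.8 and 582.2 on those of Xid, and 509.4 and 537.3 on those of Btk KO. It separates all 3 groups with Xid highest and Btk KO lowest, but by small steps: Btk KO lay -0.18 ± 0.18 from Xid (limma adjusted p = 0.998), the smallest p of the complex in that comparison. Cox7a2l, a relative of subunit VIIa that takes part in supercomplexes, was the most even member, at 628.7 to 687.6 over the 6 arrays and 0.02 (-0.40 to 0.45) in Btk KO against CBA. Cox6c, on a probe set of the _f_at type at 879.9 to 1168.4, differed by 0.04 and 0.06, and was lower in run 2 in each group.

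The isoforms known from heart and skeletal muscle were looked at by themselves. Cox6a2, the muscle form of subunit VIa, read 115.3 and 269.9 on the CBA arrays, 305.7 and 279.6 on those of Xid, and 266.9 and 326.3 on those of Btk KO. The CBA array of run 1 is the lowest by far, and the CBA array of run 2 overlaps with Btk KO. The differences from CBA were 0.71 ± 0.36 in Xid and 0.72 ± 0.36 in Btk KO (limma adjusted p = 0.999 and 0.648), at 1.36 and 1.17 in run 1 and 0.05 and 0.27 in run 2. Cox6a1, the form of other tissues, differed by -0.15 and -0.07, on a probe set of the _f_at type. Cox8b, the muscle form of subunit VIII, had 1 measured probe set, of the _r_at type, at 111.6 and 68.3 for CBA, 121.9 and 100.1 for Xid, and 119.5 and 105.6 for Btk KO, while its other probe set read at most 12.5. Cox7a1, the muscle form of subunit VIIa, read at most 6.7, and the 3 probe sets of Cox6b2, a testis form, at most 53.7. The summed intensity of 9 muscle markers, of which 2 passed the filter, was 118.2 and 81.8 for CBA, 130.4 and 128.0 for Xid, and 157.5 and 134.7 for Btk KO. It was thus higher on all 4 mutant arrays than on the CBA arrays, as Cox6a2 was except on the Btk KO array of run 1, and its part in the values of Cox6a2 and Cox8b was not tested. The median difference of the 2 measured markers from CBA was 0.46 in Xid and 0.77 in Btk KO, and limma called neither. Of the 2, Actn3 read 13.1 and 14.0 on the CBA arrays and 14.9 to 33.9 on the mutant arrays. Ckm overlapped, with 33.7 on the CBA array of run 1 against 27.7 for Xid and 32.6 for Btk KO in run 2. Cox4i1, the main form of subunit IV, was read by 2 weak probe sets that disagreed. That of the _f_at type differed by -0.22 in Xid and -0.02 in Btk KO, and the other by 0.52 and 0.30. No direction is therefore given for Cox4i1.

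Complex V, the ATP synthase, had the lowest median of the complexes in Btk KO against CBA when both arrays were used, and this order rests on 1 array, that of Btk KO in run 1 (Gapdh ratio 10.4). Over 19 probe sets it was -0.23 in Btk KO against CBA and -0.17 against Xid, and -0.01 in Xid against CBA. With 1 probe set per gene, the brightest, it was -0.12 in Btk KO against CBA; 4 of the 19 read Atp5d. Within the runs the median was -0.12 in run 1 and -0.01 in run 2. Without the Btk KO array of run 1 it was -0.09, and -0.07 with the run as a block as well, while that of complex III was then lower, at -0.31 and -0.28. The median of complex III itself turned with the array, at 0.14 within run 1 and -0.31 within run 2. In 5 of the 19 both Btk KO arrays lay below both CBA arrays (26.3%, against 16% of all), and in 1 above (5.26%, against 20%).

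In the catalytic head, Atp5a1, the alpha subunit, read 1288.7 and 1102.5 on the CBA arrays, 1205.4 and 1148.3 on those of Xid, and 1338.2 and 1120.2 on those of Btk KO. The groups overlap, and the differences were -0.02 (-0.50 to 0.46) and 0.04 (-0.44 to 0.52). Atp5c1, the gamma subunit of the rotating stalk, was read by 2 measured probe sets at -0.12 and -0.51 in Btk KO. On the second of these the Btk KO array of run 1 read 225.0 and the other 5 arrays 369.8 to 512.8, and the difference was -1.08 in run 1 and 0.06 in run 2. Atp5e, the epsilon subunit of the same stalk, whose probe set is of the uncertain _i_at type, read 378.3 and 601.5 on the CBA arrays, 416.4 and 338.2 on those of Xid, and 281.8 and 301.8 on those of Btk KO. Both Btk KO arrays lie below all 4 other arrays. Its difference from CBA, -0.70 ± 0.26, had the smallest p of all members (limma adjusted p = 0.480, and 0.201 with the run as a block), at -0.42 in run 1 and -0.98 in run 2; that from CBA in Xid was -0.34 ± 0.26 (0.999). Atp5d, the delta subunit beside it, was read by 4 measured probe sets, which differed by -0.24 to -0.37 in Btk KO and -0.07 to 0.10 in Xid against CBA. The probe set with the smallest p in Btk KO against Xid, of the _f_at type, measured 159.5 and 159.4 in Xid and 95.4 and 142.0 in Btk KO, a difference of -0.43 ± 0.24 (limma adjusted p = 0.998).

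In the outer stalk and the membrane part, Atp5o, the subunit that joins stalk and head, read 246.2 and 345.4 on the CBA arrays, 175.3 and 278.5 on those of Xid, and 130.3 and 271.7 on those of Btk KO. In both runs CBA was highest and Btk KO lowest, and each group was lower in run 1. The difference of Btk KO from CBA was -0.61 ± 0.38 (limma adjusted p = 0.733); the run as a block gave it the smallest p of all members, yet it did not pass (adjusted p = 0.173). Its values within the runs were -0.89 and -0.34. Atp5md, a small membrane subunit also known as DAPIT and read by a probe set of the _f_at type, gave 317.8 and 347.5 on the CBA arrays, 388.6 and 358.7 on those of Xid, and 413.9 and 396.6 on those of Btk KO. The 3 groups do not overlap, with CBA lowest and Btk KO highest, and the differences from CBA were 0.17 (-0.26 to 0.59) and 0.28 (-0.14 to 0.70). Atp5l, subunit g, was lower in Btk KO on its bright probe set (974.8 and 850.8 against 1058.9 and 1078.9, a difference of -0.23). On its dim one, of the _f_at type, it was higher (0.51), so the probe sets disagree. Atp5pb, subunit b, read 81.8 on the Btk KO array of run 1 and 26.7 to 39.1 on the other 5.

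Across the chain, 8 genes had several measured probe sets. Their differences had opposite signs for 5 of them in Xid against CBA (Atp5d, Atp5g1, Atp5l, Cox4i1 and Ndufv2), for 2 in Btk KO against CBA (Atp5l and Cox4i1) and for 3 in Btk KO against Xid (Atp5l, Cox4i1 and Ndufv2). The members on the X chromosome, which holds Btk, were Ndufa1, Ndufb11 and Cox7b. In the RefSeq gene table (GRCm38.p6) 238 genes lie between Btk and Cox7b, 1366 between Btk and Ndufa1 and 1579 between Btk and Ndufb11, so none is its neighbour. Ndufb11, a membrane arm subunit, read 399.0 and 454.4 on the CBA arrays, 353.7 and 393.3 on those of Xid, and 308.2 and 368.0 on those of Btk KO. All 4 mutant arrays lie below both CBA arrays, by -0.19 (-0.65 to 0.27) in Xid and -0.33 (-0.79 to 0.13) in Btk KO. Cox7b and Ndufa1 differed by -0.10 and 0.00 in Btk KO.

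For the members, differences between runs and between groups were of similar size. Their median run difference was 0.21 on the log2 scale, and their median distance between the highest and the lowest group mean 0.23. Over all probe sets tested these were 0.23 and 0.32. They are unlike measures, and the runs also differ in mice, RNA and chip lot. What set the levels was not tested. The difference between runs, averaged over the groups, was larger than the distance between the highest and the lowest group mean for 37 of the 73 (50.7%, against 36.8% of all probe sets tested). In 16 members run 2 was higher in all 3 groups (21.9%, against 20.8%) and in 20 it was lower (27.4%, against 23.8%). The Btk KO array of run 1, with the Gapdh ratio of 10.4, was the lowest of the 6 for 23 members (31.5%, against 24.4% of all) and the highest for 19 (26%, against 27.6%). Among the 23 with their lowest value on that array were Ndufv3, both Atp5c1 probe sets, Atp5o and some of the Atp5d probe sets. The part of RNA quality in these values was not tested.

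**Figure D4:**
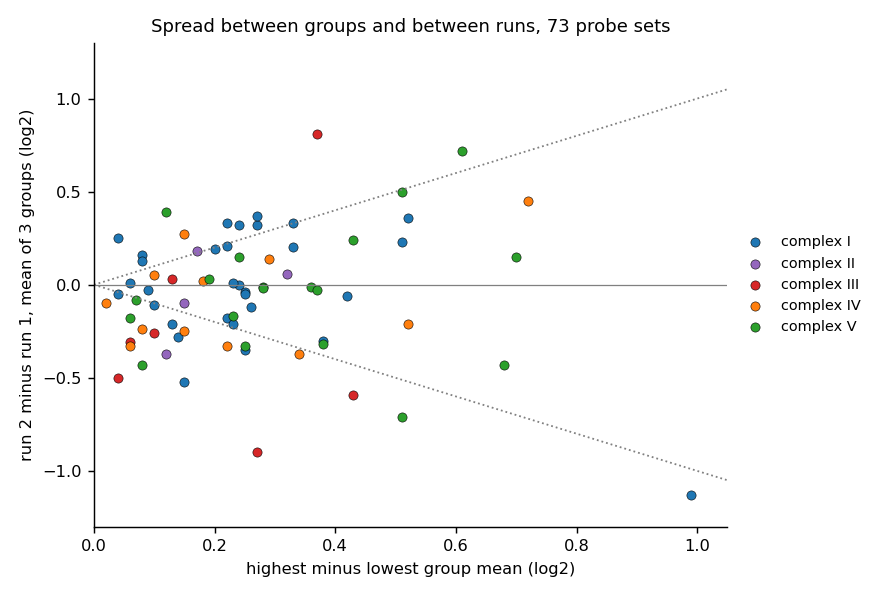
Distance between the highest and the lowest of the 3 group means (x, log2) and difference of run 2 from run 1 averaged over the groups (y, log2) for the 73 measured member probe sets, coloured by complex. Points outside the dotted lines, 37 of 73, have a run difference larger than the range of their group means. Among complex III 6 of 7 do.

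The genes around the chain were taken from lists of cofactors, carriers, fuel enzymes and regulators. Where a gene had several measured probe sets, that with the highest mean was used. Limma called 0 genes of any of the lists in any of the 3 comparisons, with the run as a block or without it; without it, Etfb and Idh2 had an unadjusted p under 0.05 in Btk KO against CBA (8.83% of all probe sets did), and none in Xid against CBA. For complex III and IV genes outside the symbols above, 11 of 26 were measured, with a median of -0.02 in Xid and -0.08 in Btk KO against CBA. Cyc1, the cytochrome c1 of complex III, differed by 0.04 and -0.08, and Cox17, a copper chaperone, by -0.19 in both mutants. Lrpprc, which stabilises mitochondrial messenger RNA, differed by 0.22 and 0.29, and Coa6, an assembly factor of complex IV, by -0.58 ± 0.26 in Btk KO (limma adjusted p = 0.592).

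Among carriers and electron-transfer genes, 17 of 25 were measured, with medians of 0.01 and -0.04. Etfb, the beta subunit of the flavoprotein that feeds electrons from fatty acid oxidation to ubiquinone, read 156.0 and 155.6 on the CBA arrays, 193.8 and 205.9 on those of Xid, and 272.3 and 255.8 on those of Btk KO. The 3 groups do not overlap and follow the order CBA, Xid, Btk KO in both runs. The difference of Btk KO from CBA was 0.74 ± 0.18, with 0.78 and 0.70 within the runs, and did not pass (limma adjusted p = 0.242, and 0.0753 with the run as a block); that of Xid was 0.35 ± 0.18 (0.999). Etfa, its partner subunit, differed by 0.03 and 0.14. Slc25a3, the phosphate carrier, differed by 0.49 in Xid and -0.34 in Btk KO, and Coq9, of ubiquinone synthesis, by -0.61 ± 0.27 in Btk KO (limma adjusted p = 0.572). The Btk KO difference of Slc25a3 was -0.89 in run 1 and 0.21 in run 2, and that of Coq9 was -1.01 and -0.21. The Btk KO array of run 1 had the Gapdh ratio of 10.4, and the part of RNA quality in these differences was not tested.

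Of the citric acid cycle and pyruvate dehydrogenase list, 18 of 25 were measured, with medians of -0.10 and -0.12. Idh2, the NADP-dependent isocitrate dehydrogenase, read 80.4 and 74.6 on the CBA arrays, 100.6 and 101.1 on those of Xid, and 139.0 and 117.5 on those of Btk KO. It shows the same order of groups without overlap, with a Btk KO difference of 0.68 ± 0.21 (limma adjusted p = 0.367, and 0.140 with the run as a block). Idh3a, of the NAD-dependent enzyme, differed by -1.0 ± 0.56 in Btk KO (limma adjusted p = 0.700) and rests on the array of run 1, which read 14.4 where the other 5 read 56.1 to 81.0; the difference was -2.09 in run 1 and 0.09 in run 2. Pdk1, a kinase that restrains pyruvate dehydrogenase, differed by 0.24 in Xid. Of the regulators 15 of 25 were measured, with medians of 0.07 and 0.01. Myc, which promotes growth and mitochondrial genes, read 103.4 and 104.2 on the CBA arrays, 173.0 and 115.8 on those of Xid, and 238.9 and 117.9 on those of Btk KO, so its difference of 0.67 ± 0.35 in Btk KO (limma adjusted p = 0.671) lies mostly in run 1. Hif1a differed by 0.26 in Btk KO, Polg, the mitochondrial DNA polymerase, by 0.42 in Xid, and Gabpa and Yy1, factors known at such promoters, by 0.05 and 0.15 in Btk KO. The subunits encoded in mitochondrial DNA, 13 genes, were not analysed here.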

How the data were processed

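Whole splenic B cell RNA was measured on 6 MG_U74Av2 arrays (per the file headers), 2 per group. The deposited values are linear intensities, 1 per probe set and array, which the authors had scaled, since each array has a 2% trimmed mean of 100.06. The summary software is not given in the sources used here. Of 12488 probe sets, 66 are controls, and 10833 of the others have 1 symbol; 10817 of these were found in the gene table of GRCm38.p6, used for names and gene order.

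Intensities were taken to log2 after adding 6, their 20th percentile, so log2 differences understate the change of dim genes. Probe sets with a mean below the 40th percentile (4969) were left out. The 7453 kept went into limma 3.58.1 in R 4.3.3 as 1 model with a mean per group (lmFit, eBayes with an intensity trend, 3 residual degrees of freedom, two-sided, Benjamini-Hochberg over all kept, threshold 0.05), tested on simulated data. The replicate number was taken as the run: the design text names 2 sets of chips and the headers 2 chip lots. Deviations from the group mean correlated between groups within a run at 0.31, 0.37 and 0.44 (across probe sets). The simulated data held no such shared deviations and no array of low RNA quality, so they do not test the p-values under these conditions. The first Btk KO array shares its chip lot with the other arrays of run 1, but was hybridised on another day. Run 1 differences of Btk KO, and the block, therefore cross days. Figures were drawn with matplotlib 3.10.9. The members, lists, naming rule and alternatives were chosen with earlier results of these data known. Named are, per complex and comparison, the member with the smallest p, a list of main subunits, tissue isoforms and members whose probe sets disagree. For pathway lists the 2 genes with the smallest p in each mutant are named. Other genes were named after their values were seen. Uqcrfs1, Atp5b and Cox4i2, also named by the rule, were not analysed here.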

Additional observations from a re-analysis of the deposited data

How the results depend on the processing

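Limma called 0 members in any of the 3 comparisons under every alternative run: the run as a block (replicate block), quantile normalization or median centring, pseudocounts of 1 and 16, other filters, no trend, the compared groups alone, and each array left out. The smallest adjusted p of a member was 0.173 with the block, for Atp5o in Btk KO against CBA, and 0.0925 over all alternatives, without Btk KO of run 2; the block changed no call of a named gene. Leaving out Btk KO of run 1 together with the block was chosen after seeing the data.

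Over the whole table the calls in Btk KO against CBA ran from 0 (no trend, the compared groups alone, or without any 1 CBA or Xid array) through 13 as reported to 145 without Btk KO of run 2 and 166 with the block.

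Centring each array on its median moved the median of all probe sets in Btk KO against CBA from 0.01 to -0.10, and those of the members to -0.09, -0.18 and -0.10 in Xid against CBA, Btk KO against CBA and Btk KO against Xid; relative to all probe sets the members stayed at -0.02, -0.08 and -0.06. Then 57 of 73 members were below 0 in Btk KO against CBA, against 48 as reported, with the median of all probe sets itself below 0. The share of all probe sets below 0 was not counted. Without a filter, or over all 98 members, the members' median was -0.01 in Btk KO against CBA and -0.02 in Btk KO against Xid. With the filter at the 60th percentile it was -0.10 in Btk KO against CBA, and with 1 probe set per gene -0.04 in Btk KO against Xid. With each array left out in turn the median ran from -0.05 to 0.02 in Xid against CBA, from -0.08 to 0.01 in Btk KO against CBA and from -0.07 to -0.01 in Btk KO against Xid. The cause of these shifts was not tested.

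Among named genes, leaving out arrays in turn gave -0.06 to 0.50 for Uqcrb and -0.06 to 0.90 for Polg in Xid against CBA, -0.83 to 0.09 for Uqcr11 in Btk KO against CBA (0.02 without CBA of run 2, 0.09 without Btk KO of run 1, but -0.29 without the latter with the block), and -0.36 to 0.05 for Sdhd in Btk KO against Xid. The negative Uqcrb and Polg values are without CBA of run 2, and the positive Sdhd value without Xid of run 1. Idh3a passed in Btk KO without Btk KO of run 2, at -1.97 (limma adjusted p = 0.0362), where the only Btk KO array is that with the Gapdh ratio of 10.4. Arrays carry no detection calls here, so dim values near 19.8 limit what can be read from weak probe sets.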

Other observations

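A further 10 probe sets carry several symbols of which 1 is a respiratory chain gene, and were left out of the counts above. The brighter of them for Cox7c, a small subunit of complex IV, read 2741.0 and 2890.2 on the CBA arrays, 2719.0 and 2444.9 on those of Xid, and 3271.2 and 2290.5 on those of Btk KO, so that both Xid arrays lie below both CBA arrays while the Btk KO arrays overlap with CBA. Its difference in Xid was -0.13 and did not pass (limma adjusted p = 0.999). The probe set for Ndufs5 of complex I and its pseudogene read 232.2 and 239.6 on the CBA arrays, 189.4 and 180.7 on those of Xid, and 240.1 and 195.7 on those of Btk KO, so that both Xid arrays lie below the other 4. Its difference in Xid was -0.34 and did not pass (limma adjusted p = 0.999, and 0.727 with the run as a block). Limma called 0 of the 9 measured ones in any comparison, with the block or without it.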
